A study of Homo sapiens with 2 samples.

Results

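The matrix metalloproteinases (MMPs), the ADAM proteases, the ADAMTS proteases and the tissue inhibitors of metalloproteinases (TIMPs) were described in 2 human gastric cancer cell lines. The genes were taken by symbol, as every MMP, ADAM or ADAMTS followed by a number and every TIMP followed by a digit, with ADAM17 left out. This gave 65 of the 18923 gene symbols on the array, read by 1383 of the 286871 probesets that carried exactly 1 symbol. MKN45P is a highly metastatic gastric cancer line and MKN45 is its parent. Both were cultured in the same serum-containing medium, were harvested with trypsin and EDTA and received no other treatment. Total RNA from a lysate of each line, depleted of ribosomal RNA, was hybridised to 1 exon array, on which a gene is read by several small groups of probes (probesets) placed along its exons. The labels do not say how MKN45P was derived or whether it is 1 clone.

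MMPs are zinc proteases that cut collagens and other parts of the extracellular matrix. Most are secreted as inactive precursors, and a few are held at the cell surface. ADAMs are membrane proteases that cut the outer parts of surface proteins, a step called shedding, although several ADAMs lack a working protease site. ADAMTS proteins are secreted relatives that act on proteoglycans, procollagens and other matrix proteins. TIMPs are small secreted proteins that block MMPs and some ADAMs and ADAMTSs. In gastric carcinomas many secreted MMPs and TIMPs come from stromal cells, which a cell line does not contain.

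All values are on the log2 scale as deposited. The level of a gene in a line is the median over its probesets, and the difference is the median over probesets of MKN45P minus MKN45, given with the middle 50% of the probeset differences. Those ranges describe probesets within these 2 arrays. With a single array per line no difference could be tested, and no p-value is given. A gene was said to carry signal in a line where its level was at or above 2.77, the 75th percentile of all probesets on the array. Levels of different genes come from different probes and were not ranked against each other. Values near the low end of the scale are compressed, so differences there are smaller than the differences in RNA.

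Pearson's r between the 2 arrays was 0.953 over 877986 probesets, which are not independent replicates. Of 14 markers of gastric epithelial cells on the array, 12 carried signal, among them the epithelial cadherin CDH1 (10.74 in MKN45P, 10.26 in MKN45), and KRT20 and TFF2 did not. By the median of probeset differences 1 of the 11 measured (defined below) was 2-fold higher in MKN45P, CLDN7, and none 2-fold lower. CLDN7 was at 9.93 in MKN45P and 8.83 in MKN45 (difference 1.14). Of all measured genes 4.58% were 2-fold higher. Of 13 fibroblast markers 1 carried signal, COL1A1 (2.86 in MKN45P, 2.62 in MKN45), and of 13 immune and endothelial markers none did. A list of 36 genes specific to other tissues, such as retina and skeletal muscle, served as a gauge of the signal limit. Of these 1 passed it (2.78%), the myelin gene MBP, at 2.83 in MKN45P and 2.39 in MKN45.

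Few of the protease and inhibitor genes carried signal, and by the median of probeset differences none differed 2-fold between the lines, a call that for TIMP2 turned on how probesets were summarised. Signal in either line was present in 13 of the 65 genes (20%), against 51.6% of all genes with at least 4 probesets. The 13 were MMP14, MMP15, ADAM8, ADAM9, ADAM10, ADAM11, ADAM15, ADAMTS2, ADAMTS13, ADAMTS17, TIMP1, TIMP2 and TIMP3. In 9 of them both lines carried it. By this limit on the gene median, ADAMTS17 and TIMP2 carried it in MKN45P alone, and ADAM11 and TIMP3 in MKN45 alone. In the line under the limit, 11 of 30 ADAMTS17 and 5 of 19 TIMP2 probesets still reached it. So did 11 of 26 in ADAM11 and 4 of 11 in TIMP3. The share of all genes with signal in 1 line alone was not counted. These are bulk lysates, so fewer cells expressing a gene and less of its RNA per cell cannot be told apart. Levels at or above 4.84, the 90th percentile of all probesets, were reached by MMP14, ADAM9, ADAM10, ADAM15 and TIMP1, which is 5 of 65 genes against 20.7% of all genes. The other 52 genes lay between 1.65 and 2.73 in MKN45P and between 1.63 and 2.67 in MKN45.

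**Figure D1:**
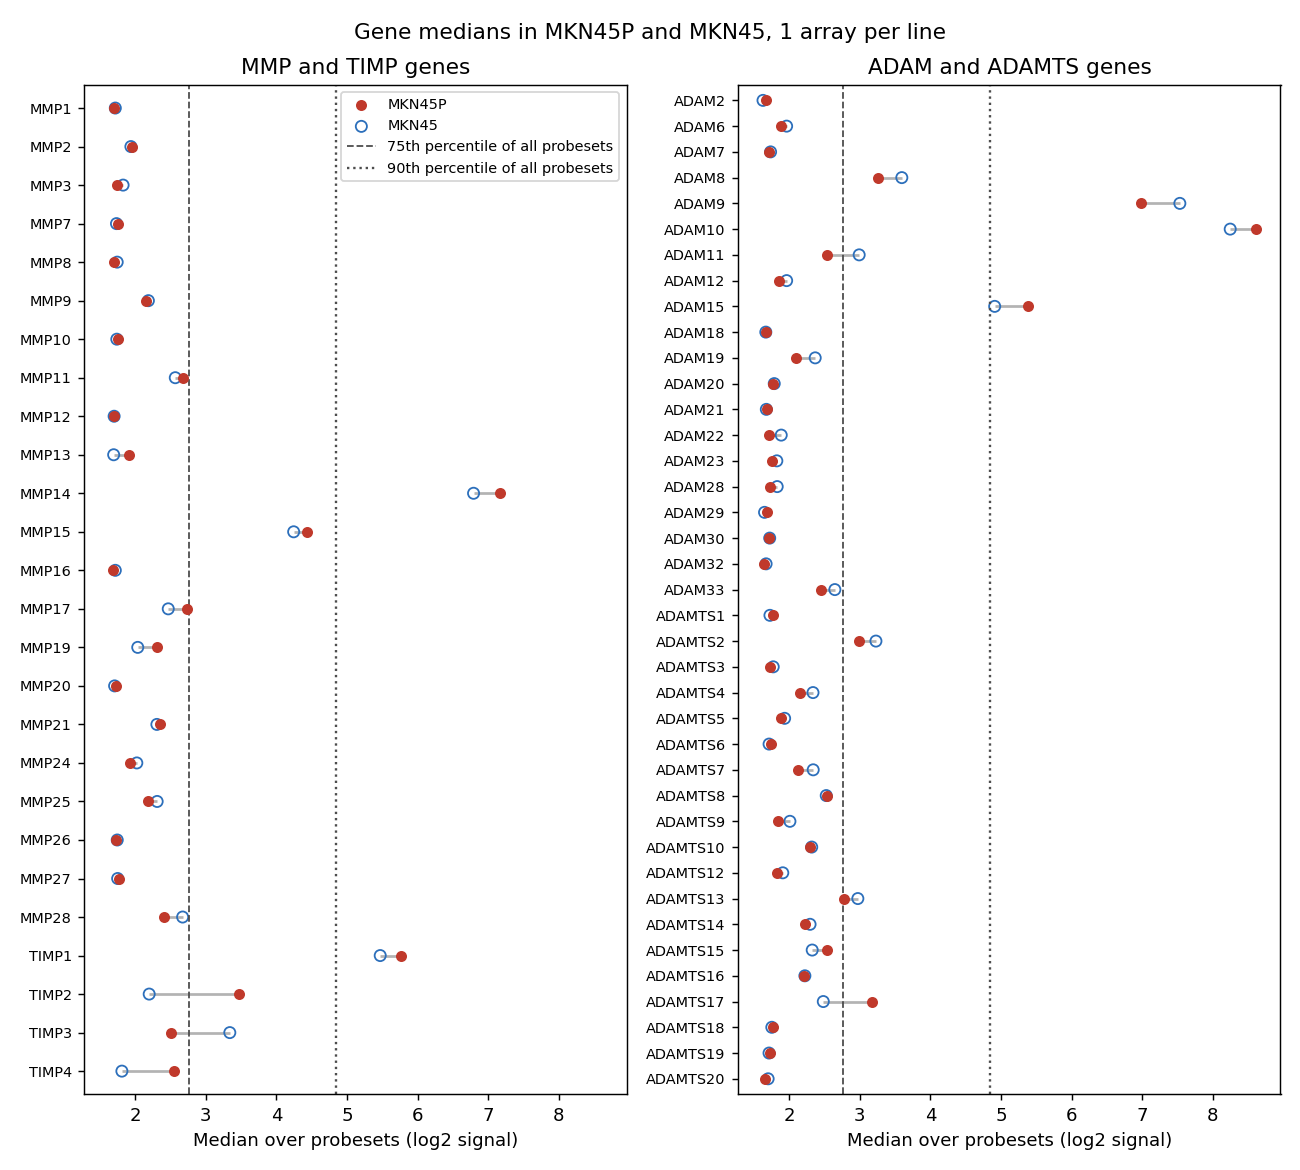
Median log2 signal over probesets of each of the 65 genes in MKN45P (filled red) and MKN45 (open blue), 1 array per line. Dashed and dotted lines mark the 75th and 90th percentiles of all probesets; 13 genes reach the first and 5 the second, and the 2 lines lie close together in most genes.

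Differences were counted only in measured genes, those read by 4 probesets or more whose level, averaged over the lines, reached the array's median probeset level of 1.92. This held for 34 of the 65 genes. None of the 34 was 2-fold higher in MKN45P, where 4.58% of all 13130 measured genes were, and none was 2-fold lower, where 1.20% were. In either direction 5.78% of all measured genes passed 2-fold. The count of 0 higher depended on the summary, and so did the count over all genes. With the mean over probesets it was 1 of 43, TIMP2 (1.02), beside 645 of all 15042 genes measured that way. Between the line medians it was 1 of 34, TIMP2 (1.27), beside 1263 of 13130 genes. With only probesets at or above the signal limit it was 2 of 34, TIMP2 and MMP19, beside 1218 of 10645 genes. With those probesets ADAMTS14 was also 2-fold lower, beside 313 of 10645 genes. The differences of the 34 ran from -0.56 to 0.67, with a median of -0.05 against 0.03 over all measured genes. Of the 34, 24 had a negative difference and 10 a positive one, and the shares of all measured genes by sign were not counted. The middle 50% of probeset differences lay wholly above 0 in 3 of them, MMP14, MMP19 and TIMP4, against 28.3% of measured genes. It lay wholly below 0 in 7, ADAM6, ADAM9, ADAMTS4, ADAMTS7, ADAMTS9, ADAMTS10 and TIMP3, against 18.6% of measured genes.

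Among the MMPs only the membrane-anchored subgroup held genes with signal. MMP14 (MT1-MMP), a membrane collagenase that also activates the MMP2 precursor, had a level of 7.17 in MKN45P and 6.79 in MKN45. Its difference was 0.34 (middle 50% 0.06 to 0.63 over 16 probesets), and 12 of the 16 probesets were higher in MKN45P. Every one of its probesets was above the signal limit in both lines, from 4.12 to 10.27 in MKN45P and from 4.31 to 9.91 in MKN45. Over the scalings tried the difference of MMP14 ran from 0.16 to 0.34. MMP15 (MT2-MMP), another membrane-anchored protease, was at 4.44 in MKN45P and 4.24 in MKN45. Its difference was -0.01 (-0.20 to 0.23 over 18 probesets), with 9 probesets higher and 9 lower. The other membrane-anchored MMPs, MMP16, MMP17, MMP24 and MMP25, were below the signal limit in both lines. Just under the limit, MMP17 was at 2.73 in MKN45P and 2.47 in MKN45.

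No secreted MMP reached the signal limit. The collagenases MMP1, MMP8 and MMP13, which cut fibrillar collagen, lay between 1.69 and 1.92 in MKN45P and between 1.69 and 1.74 in MKN45. The gelatinases, which cut denatured collagen and basement membrane collagen, were also below it: MMP2 was at 1.96 in MKN45P and 1.94 in MKN45, and MMP9 at 2.15 in MKN45P and 2.18 in MKN45. The same was seen for the stromelysins MMP3 and MMP10 and for MMP11, an MMP of tumour stroma, with MMP11 at 2.68 in MKN45P and 2.57 in MKN45. The matrilysins MMP7 and MMP26, small MMPs without the hemopexin domain, lay between 1.72 and 1.75 in MKN45P and between 1.73 and 1.74 in MKN45. MMP12, MMP20, MMP21, MMP27 and MMP28 were below the limit as well. In MMP9 a single probeset of 15 was above the 90th percentile in both lines, at 7.24 in MKN45P and 7.90 in MKN45. In MKN45 3 MMP9 probesets reached that percentile, against 1 in MKN45P. Over the 4 MMP9 probesets with signal in the mean of both arrays the median difference was -0.67.

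MMP19, a widely expressed secreted MMP, was below the signal limit as a gene but held probesets that differed between the lines. Its level was 2.31 in MKN45P and 2.03 in MKN45, with a difference of 0.24 (0.11 to 0.54 over 21 probesets), and 19 of 21 probesets were higher in MKN45P. Probeset 3457279 was at 6.04 in MKN45P and 3.24 in MKN45, and probeset 3457284 at 5.64 in MKN45P and 3.24 in MKN45. Probesets 3457281 and 3457287 were each higher by 1.21 in MKN45P. The brightest probeset, 3457282, went the other way, at 6.89 in MKN45P and 7.75 in MKN45. Over its 6 probesets with signal in the mean of both arrays the median difference was 1.21.

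The MMP genes that sit side by side on chromosome 11 had no signal in either line. In the RefSeq annotation of GRCh38.p14 the order there is MMP7, MMP20, MMP27, MMP8, MMP10, MMP1, MMP3, MMP12 and MMP13, between bases 102520508 and 102955732. The 9 genes lay between 1.69 and 1.92 in MKN45P and between 1.69 and 1.83 in MKN45. Of their 121 probesets, 3 in MKN45P and 7 in MKN45 were at or above the signal limit. The highest single value among them in MKN45 was 4.27, in MMP3, whose highest in MKN45P was 2.77. None of the 9 passed the level filter, so none entered the counts of differences.

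Promoter sequence from RefSeq (GRCh38.p14) was matched for 37 of the 65 genes, and the 250 bases before the gene start were examined. The stretches below are the 100 bases before the start, on the strand of the gene, for 3 genes at or above the 90th percentile and for 2 of the chromosome 11 cluster. They are shown because the 10 matched genes with signal and the cluster differ in base composition. The median share of G and C in the 250 bases was 70.4% for the 10 and 34.4% for the 5 matched genes of the cluster. Over all 27 matched genes without signal, the cluster among them, it was 65.6%. Capitals mark, on either strand, the GC box GGGCGG (read as CCGCCC on the other strand), the TATA box TATAAA, the AP-1 motif TGANTCA and the ETS motif AGGAAG. No 2 marked motifs overlap. ADAM10, the other of the 4 matched genes at or above the 90th percentile, is not shown. Its 100 bases held an ETS motif but no GC box, although its 250 bases held 1. In the cluster, the 250 bases of MMP8 held no AP-1 motif, and those of MMP27 held neither that motif nor TATAAA.
MMP14, chr14:22836485-22836584, plus strand: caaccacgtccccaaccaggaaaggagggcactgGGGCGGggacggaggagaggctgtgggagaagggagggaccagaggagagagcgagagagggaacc
ADAM15, chr1:155051216-155051315, plus strand: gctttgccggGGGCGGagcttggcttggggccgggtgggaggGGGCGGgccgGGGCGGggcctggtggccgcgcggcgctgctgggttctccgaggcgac
TIMP1, chrX:47582336-47582435, plus strand: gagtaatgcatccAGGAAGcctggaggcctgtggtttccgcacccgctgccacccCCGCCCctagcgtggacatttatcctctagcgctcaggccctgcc
MMP7, chr11:102530748-102530847, minus strand: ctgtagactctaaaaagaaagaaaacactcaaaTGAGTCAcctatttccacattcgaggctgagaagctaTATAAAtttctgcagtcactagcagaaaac
MMP10, chr11:102780629-102780728, minus strand: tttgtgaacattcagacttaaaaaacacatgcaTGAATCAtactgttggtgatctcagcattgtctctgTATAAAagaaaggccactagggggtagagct

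In the 250-base windows, all 10 matched genes with signal held a GC box, against 14 of 27 without signal and 56.0% of all 15842 protein-coding promoters in the table. None of the 10 held TATAAA or the AP-1 motif. Of the 27 without signal 7 held TATAAA and 4 the AP-1 motif, against 9.23% and 5.04% of all protein-coding promoters. The ETS motif was in 3 of the 10 and in 5 of the 27, against 28.7% of all. Of the 5 matched genes of the chromosome 11 cluster, MMP7, MMP8, MMP10, MMP20 and MMP27, none held a GC box, 4 held TATAAA and 3 the AP-1 motif. Over all protein-coding promoters the median content of G and C was 62.4%. Outside these families it was 66.0% in genes with signal and 58.8% in genes without. GC boxes were common among genes with signal outside these families too, at 70.3%, and were present in 46.7% of those without. These matches describe letters in a window and are not evidence of a bound factor.

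**Figure D2:**
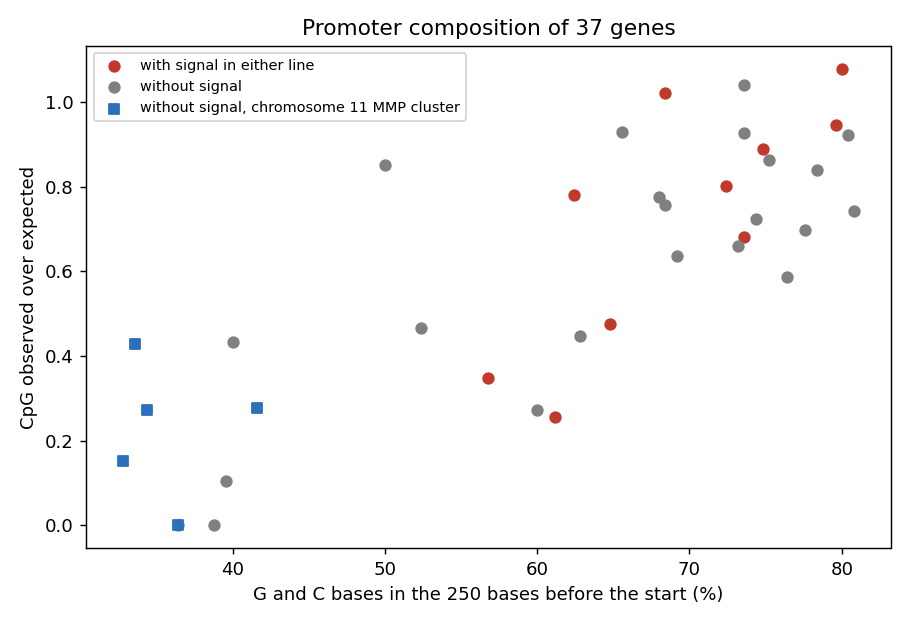
Share of G and C bases (horizontal axis) and CpG observed over expected (vertical axis) in the 250 bases before the start of 37 genes. The 10 genes with signal (red) lie at 56.8% G and C or above, the 5 genes of the chromosome 11 MMP cluster (blue squares) at 41.6% or below, and the other genes without signal (grey) spread over both regions.

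The ADAMs with a known proteinase role held 4 genes with signal, and ADAM9 was the gene of the 34 with the most negative difference. ADAM9, a widely expressed sheddase with disintegrin activity, was at 6.99 in MKN45P and 7.54 in MKN45. The difference was -0.56 (-0.74 to -0.42), and 24 of its 26 probesets were lower in MKN45P. Of these probesets 4 were 2-fold lower or more, the largest being 3095023, at 5.97 in MKN45P and 7.80 in MKN45. Over the scalings tried the difference of ADAM9 ran from -0.63 to -0.56, so it stayed under 2-fold. TM2D2, a gene that overlaps ADAM9 in the RefSeq annotation, had a difference of 0.12.

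ADAM10, which sheds Notch, cadherins and growth factor precursors, was at 8.61 in MKN45P and 8.25 in MKN45. Its difference was 0.12 (-0.20 to 0.52 over 29 probesets), with 18 probesets higher and 11 lower in MKN45P and none past 2-fold, and it changed sign to -0.04 with loess scaling. ADAM15, an ADAM with an integrin-binding disintegrin domain, was at 5.38 in MKN45P and 4.91 in MKN45. The probeset differences of ADAM15 had a median of 0.03 (-0.15 to 0.33 over 26 probesets), with 14 probesets higher and 12 lower in MKN45P. Between the medians of the lines its difference was 0.47, outside that range. ADAM8, a leukocyte and tumour cell ADAM, was at 3.25 in MKN45P and 3.60 in MKN45. In ADAM8 18 of 26 probesets were lower in MKN45P, with a difference of -0.20 (-0.47 to 0.03). The others of this role, ADAM12, ADAM19, ADAM20, ADAM21, ADAM28, ADAM30 and ADAM33, had no signal in either line. ADAM33 was at 2.44 in MKN45P and 2.65 in MKN45. Its probeset 3895568 was at 2.91 in MKN45P and 5.78 in MKN45.

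Of the ADAMs without a known proteinase role, ADAM2, ADAM7, ADAM18, ADAM22, ADAM23, ADAM29 and ADAM32 had no signal. ADAM2, ADAM7 and ADAM18 are known from the testis and epididymis, and none of their probesets reached the signal limit in either line. ADAM11, a gene known from the nervous system, was near the limit, at 2.54 in MKN45P and 2.99 in MKN45, with a difference of -0.16 (-0.53 to 0.06 over 26 probesets). ADAM6, a pseudogene in humans, was at 1.88 in MKN45P and 1.96 in MKN45. In ADAM23 a single probeset of 30 was bright, at 11.40 in MKN45P and 11.43 in MKN45, while the gene's level was 1.75 in MKN45P and 1.82 in MKN45. One or more probesets at or above the 90th percentile in both lines were found in 16 of the 52 genes without signal. The same share over all genes without signal was not counted, so this cannot be read as a trait of these families.

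The ADAMTS genes lay near or below the signal limit in both lines. ADAMTS2, which removes the amino-terminal propeptide of procollagens, was at 2.98 in MKN45P and 3.23 in MKN45, with a difference of -0.40 (-0.65 to 0.03 over 23 probesets). Its relatives in that role, ADAMTS3 and ADAMTS14, had no signal. ADAMTS13, the protease of von Willebrand factor, had 4 probesets, with levels of 2.78 in MKN45P and 2.97 in MKN45 and a difference of -0.10 that reached 0.0008 with loess. None of the proteoglycan-cutting members had signal, ADAMTS1, ADAMTS4, ADAMTS5, ADAMTS8, ADAMTS9, ADAMTS15 and ADAMTS20, and they lay between 1.65 and 2.54 in MKN45P and between 1.70 and 2.52 in MKN45. In ADAMTS9 48 of 59 probesets were lower in MKN45P, with a difference of -0.18 (-0.33 to -0.09) at levels of 1.83 in MKN45P and 2.01 in MKN45. The remaining members without signal were ADAMTS6, ADAMTS7, ADAMTS10, ADAMTS12, ADAMTS16, ADAMTS18 and ADAMTS19.

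ADAMTS17, whose loss causes a connective tissue disorder in humans, was at 3.18 in MKN45P and 2.48 in MKN45. The difference was 0.28 (-0.07 to 0.38 over 30 probesets), and 21 probesets were higher in MKN45P. Probeset 3641744 was at 5.92 in MKN45P and 2.47 in MKN45, and probeset 3641748 at 3.39 in MKN45P and 5.06 in MKN45. The 2 brightest, 3641752 and 3641753, were slightly lower in MKN45P, by -0.67 and -0.36.

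The 4 inhibitors differed from each other in pattern. TIMP1, a secreted inhibitor that also promotes growth, was at 5.77 in MKN45P and 5.47 in MKN45, with a difference of -0.01 (-0.12 to 0.21 over 16 probesets). Of its probesets 8 were higher and 8 lower, and the brightest, 3976358, was at 10.49 in MKN45P and 10.53 in MKN45. TIMP3, which binds to the matrix and also blocks ADAM proteases, was at 2.50 in MKN45P and 3.34 in MKN45. Its difference was -0.46 (-0.85 to -0.28), and 10 of 11 probesets were lower in MKN45P. The brightest TIMP3 probeset in both lines, 3943508, was at 5.68 in MKN45P and 7.21 in MKN45.

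TIMP4 had the largest difference of the 34 measured genes, at low levels. The gene was at 2.55 in MKN45P and 1.81 in MKN45, with a difference of 0.67 (0.38 to 0.77), and 6 of 7 probesets were higher in MKN45P. In MKN45P those 6 lay between 2.20 and 3.31, against 1.71 to 2.56 in MKN45. The remaining probeset, 2663136, was bright in both lines and lower in MKN45P, at 8.58 in MKN45P and 9.01 in MKN45. TIMP1, TIMP3 and TIMP4 lie within the synapsin genes SYN1, SYN3 and SYN2 in the RefSeq annotation. The synapsin genes had no signal, with SYN1 at 2.64 in MKN45P and 2.73 in MKN45 and SYN3 at 2.12 in MKN45P and 2.18 in MKN45. Their differences were -0.13 in SYN1 and SYN2 and -0.08 in SYN3.

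TIMP2 held the largest single differences of any gene in the 4 families, but in only some of its probesets. TIMP2 is an inhibitor that, bound to MMP14 at the cell surface, takes part in activating the MMP2 precursor. As a gene it was at 3.47 in MKN45P and 2.20 in MKN45, while the median of its probeset differences was 0.12, with a middle 50% of -0.06 to 2.44. Among its 19 probesets, 7 were 2-fold or more above MKN45 in MKN45P and 1 was 2-fold lower. In 6 of them the difference exceeded that of the gene by at least 2 in log2 units. In MKN45P these 6 had values of 4.41, 7.18, 6.29, 5.34, 5.85 and 5.09, against 2.02, 3.05, 2.20, 2.36, 3.35 and 1.98 in MKN45, in the order of probesets 3772663, 3772664, 3772665, 3772666, 3772668 and 3772675. The lowest of the 6 values in MKN45P was above the highest in MKN45. The 6 were picked for their differences, so this is a description.

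The differing TIMP2 probesets stood together in the numbering. The first 12 by number, 3772662 to 3772677, had a median difference of 1.97 and held all 7 that were 2-fold higher. The last 7, 3772695 to 3772711, had a median difference of -0.03 and ranged from -0.52 to 0.14. Where these lie along the gene was not used here, since no positions of probesets were given. Of the last 7 only 3772706 had signal, at 7.08 in MKN45P and 7.59 in MKN45. Within the first 12, probeset 3772677 was lower in MKN45P, at 3.47 in MKN45P and 4.82 in MKN45, and 3772672 differed by 0.60, at 5.23 in MKN45P and 4.63 in MKN45. The gene difference therefore depended on the summary, with 1.02 for the mean over probesets, 1.27 between the medians of the lines and 2.44 over the 10 probesets with signal in the mean of both arrays. Of these 10, 5 had signal in MKN45P alone and none in MKN45 alone, so several passed that limit through the line in which they were higher, and the 2.44 is given as a description of a selected set. Both neighbours of TIMP2 in the RefSeq order were higher in MKN45P, USP36 by 0.80 (5.85 in MKN45P, 4.76 in MKN45) and LGALS3BP by 0.87 (11.02 in MKN45P, 10.13 in MKN45). Among the other genes with signal, some neighbours differed in the same direction as the gene and others in the opposite one. A link between TIMP2 and its neighbours was not tested. CEP295NL, which overlaps TIMP2 in RefSeq, could not be matched to a symbol on the array.

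**Figure D3:**
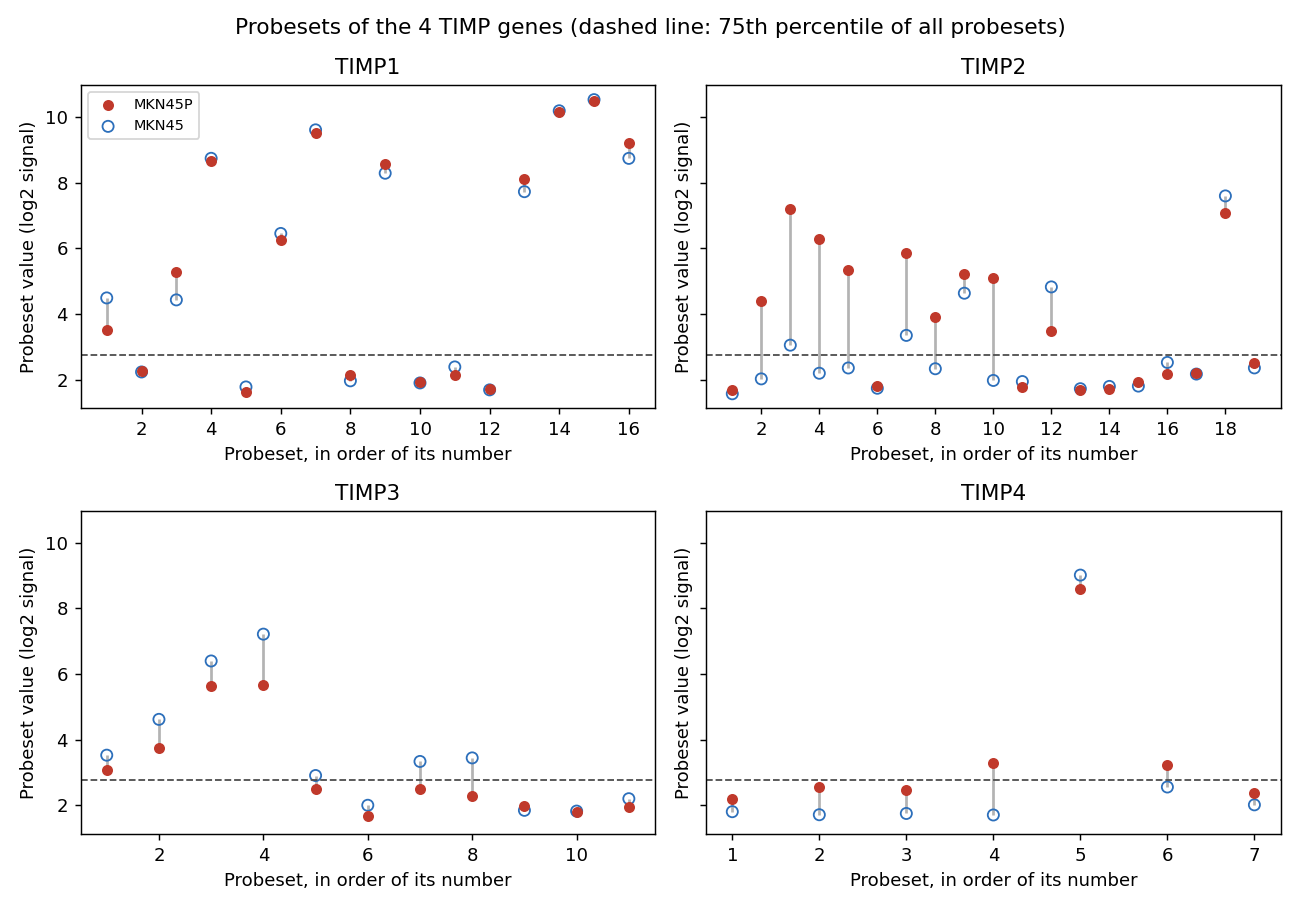
Log2 signal of every probeset of TIMP1, TIMP2, TIMP3 and TIMP4 in MKN45P (filled red) and MKN45 (open blue), in order of probeset number; the dashed line is the 75th percentile of all probesets. In TIMP2, 7 probesets of the first 12 lie 2-fold or more above MKN45 in MKN45P, while TIMP1 coincides in most probesets and 10 of 11 TIMP3 probesets are lower in MKN45P.

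The comparison by exon took in 59 of the 65 genes, those with 8 probesets or more whose own difference was below 2-fold. A probeset with signal was said to depart from its gene where its difference was at least 2 above or below that of the gene. This was the case for 11 probesets in 5 of the 59 genes, TIMP2, MMP19, ADAMTS17, ADAMTS9 and ADAM33, where 9.33% of all 12992 genes examined had at least 1. Of the 11, 9 departed upward. The downward ones were those of ADAM33 and of ADAMTS9, where probeset 2680169 was at 3.47 in MKN45P and 6.05 in MKN45. TIMP2 and MMP19 had 2 or more in the same direction, as did 1.60% of all genes. With 6, TIMP2 was among the 12 genes (0.0924%) that had 6 or more. That count is a description and rests on the gene's median difference of 0.12. Of the 19 TIMP2 probesets 9 were under the signal limit in both lines, with a median difference of 0.02. Several of the 6 were below the limit in MKN45 and passed it in the mean through MKN45P. With the mean over probesets TIMP2 itself passed 2-fold (1.02) and was not examined.

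Over single probesets, the families held fewer upward differences than the array as a whole. Of the 358 probesets with signal in the mean of both arrays, 15 (4.19%) were 2-fold higher in MKN45P, against 17.0% of all such probesets with 1 symbol. These 15 lay in 5 genes, with 7 in TIMP2, 4 in MMP19, 2 in ADAMTS17 and 1 each in ADAMTS7 and ADAMTS15. Without TIMP2 the count was 8 of 348. In the other direction 38 (10.6%) were 2-fold lower, against 7.93% of all, and they were spread over 22 genes with at most 4 in any one. Probesets of 1 gene share their RNA and are not independent, and the families' share was not tested against that of the array.

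**Figure D4:**
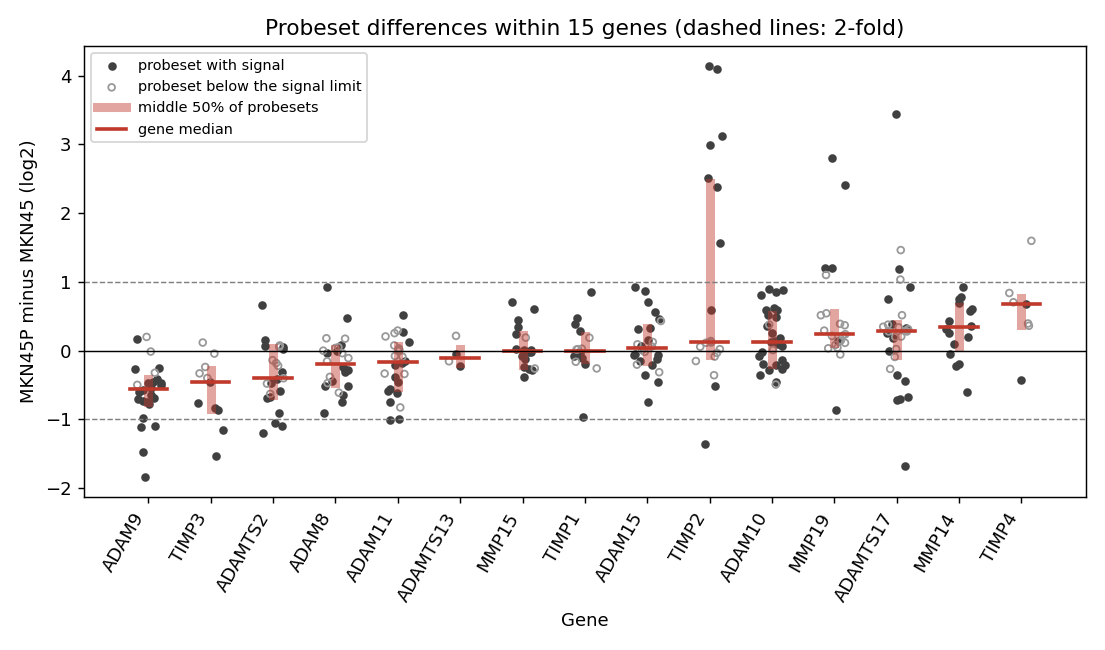
MKN45P minus MKN45 (log2) for each probeset of the 13 genes with signal and of MMP19 and TIMP4, ordered by gene median (red line) with the middle 50% of probesets (red bar). Filled points had signal in the mean of both arrays. The gene medians run from -0.56 in ADAM9 to 0.67 in TIMP4, inside the dashed 2-fold lines, while single probesets of TIMP2 reach 4.13.

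Genes that act on these proteases were also mostly within 2-fold, where 5.78% of all measured genes passed 2-fold in either direction. In lists this small, counts of 0 or 1 lie near that share and are no result about the lists. Of 16 measured regulators of MMP activity none was 2-fold higher and 1 was 2-fold lower, the tetraspanin TSPAN1 (5.82 in MKN45P, 7.62 in MKN45, difference -1.53), with a list median of -0.14. FURIN, the convertase that activates MMP14 and many ADAM precursors, was at 6.29 in MKN45P and 6.81 in MKN45, and 18 of its 19 probesets were lower in MKN45P (-0.59, -0.70 to -0.30). BSG, a surface glycoprotein known to induce MMPs, was at 9.04 in MKN45P and 8.61 in MKN45. RECK, a membrane-anchored MMP inhibitor, had no signal, at 1.79 in both lines.

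Of 12 measured partners of ADAM proteases none passed 2-fold by the median of probeset differences, where 5.78% of all measured genes did. A positive difference was held by 10 of the 12, with a median of 0.29 against 0.03 over all measured genes. The share of all measured genes with a positive difference was not counted. These partners include the tetraspanins that guide ADAM10 to the cell surface. TSPAN15 was at 8.96 in MKN45P and 8.32 in MKN45, with 10 of 11 probesets higher, and TSPAN14 at 5.70 in MKN45P and 5.08 in MKN45. TSPAN33 was at 3.25 in MKN45P and 2.08 in MKN45, levels past 2-fold apart, while the median of its probeset differences was 0.52 (0.10 to 0.84). The same held for MAD2L2, at 7.19 in MKN45P and 5.57 in MKN45 with a difference of 0.65 (-0.03 to 1.25). TSPAN5 had no signal. NRD1, a metallopeptidase that promotes ADAM shedding, was at 5.99 in MKN45P and 5.15 in MKN45, with 34 of 38 probesets higher. SH3PXD2A, a scaffold of invadopodia, the protrusions where MMP14 acts, was at 3.10 in MKN45P and 3.60 in MKN45, with 25 of 28 probesets lower.

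Of 9 measured genes among other metzincins and ADAMTS-like genes none passed 2-fold (median -0.10), where 5.78% of all measured genes did. BMP1, a procollagen C-proteinase, was at 2.86 in MKN45P and 2.91 in MKN45. Of 24 measured substrates of these proteases none was 2-fold higher and 1 was 2-fold lower (median -0.05), against 4.58% and 1.20% of all measured genes. The 1 lower was NOTCH1, a receptor cut by ADAM10, at 4.58 in MKN45P and 6.10 in MKN45 and lower at all 39 probesets. CXCL16, a chemokine shed from the cell surface by ADAM10, was at 8.28 in MKN45P and 7.23 in MKN45 and higher at all 10 probesets (0.88). COL4A2, a chain of basement membrane collagen, was at 6.30 in MKN45P and 5.51 in MKN45, with 37 of 41 probesets higher. ADAM17, which is outside the set described, was at 6.92 in MKN45P and 4.53 in MKN45, with a difference of 2.64 over 23 probesets.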

How the data were processed

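The deposited table held 1 log2 value per probeset for each of 2 arrays, and Partek and hg18 are named per the submitters' processing notes. How background was corrected, probes summarised and arrays normalized is not given in the sources used here. The log2 scale of the deposited values was read from their range (1.42 to 13.48). Values were used as deposited. Probesets were named through GEO's annotation of the platform, with 286871 probesets of 1 symbol, 3137 of several (left out) and 587978 unnamed there. All 65 symbols were current in RefSeq GRCh38.p14, used for names, gene order and promoters; positions in hg18 were not used. No detection call was used, and the number of arrays limits the precision.

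Gene values were medians over probesets. The text names every gene of the set, with both levels for those with signal, and the departing probesets. Genes of other lists are named past 2-fold, or as examples chosen after their values were seen. The genes and lists were chosen with earlier results of these data known. Alternatives covered scaling (quantile, loess with a span of 0.3, centring), summary, filters and the signal limit. Steps were run on simulated data with known shifts set past the limits, which is a check of the code and not of these results. Python 3.11.15, numpy 2.4.6, pandas 2.3.3, statsmodels 0.14.6 and matplotlib 3.10.9 were used.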

Additional observations from a re-analysis of the deposited data

How the results depend on the processing

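The count of genes with signal depended on the limit and the summary. The 13 became 5 with the 90th percentile as limit, 36 with the median, 24 with the mean over probesets and 49 when only probesets at or above the 75th percentile were used, which by construction keeps any gene with bright probesets. It was 12 to 14 under the other settings. No gene was 2-fold higher under the scaling, level filter and probeset number settings. TIMP2 was the 1 gene past it with the mean or with the line medians, and TIMP2 and MMP19 were the 2 with only bright probesets, where ADAMTS14 was the 1 gene 2-fold lower. The median difference of measured genes was -0.31 with only bright probesets and between -0.11 and -0.02 otherwise. Over all genes, 467 (of 9668) to 1263 (of 13130) were 2-fold higher and 128 (of 9668) to 313 (of 10645) lower. The 6 departing TIMP2 probesets, an alternative run added after the data were seen, stayed 6 with quantile and loess scaling and became 0 with the mean, since the gene itself then passed 2-fold and was not examined. Of 78 differences of the 13 genes under other settings 74 lay within the middle 50% of probeset differences. The 4 outside were those of ADAM15, ADAMTS13, ADAMTS17 and TIMP1 between the medians of the lines. That range is wide where probesets disagree, so lying within it is no measure of stability. TIMP2 counted as within it throughout while moving from 0.12 to as much as 2.44. Of the 78, 7 changed sign, all in genes with small main differences (ADAM10, ADAMTS13, MMP15 and TIMP1). No paired analysis was possible because each line had 1 array.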
